A study of Mus musculus with 6 samples.

Results

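The 8 genes described here encode receptors and signal transducers that hold follicular helper T (Tfh) cells inside the B cell follicle and germinal centre or draw them out of it. They were taken by name: the sphingosine-1-phosphate (S1P) receptors S1pr1, S1pr2 and S1pr4, the oxysterol receptor Gpr183, the G protein subunit Gna13, the guanine nucleotide exchange factor Arhgef1, and the regulators of G protein signalling Rgs1 and Rgs16. All 8 were found among the 23420 genes with a value in every library, and all 8 were among the 10306 genes that passed the filter on low values and were tested. RNA was sequenced from Tfh cells sorted from the spleens of FoxP3GFP/DTR CD4Cre/+Bob1fl/fl mice and of control FoxP3GFP/DTR CD4+/+Bob1fl/fl mice, with 3 libraries per genotype and 0.7 ng of RNA per library. Both genotypes carried the floxed Bob1 allele, in which the whole Pou2af1 gene can be cut out, and the FoxP3 reporter that marks regulatory T cells with GFP. Only the Bob1-deficient group carried Cre, which the Cd4 promoter drives in the T lineage as a whole and not in Tfh cells alone. The mice were age- and sex-matched littermates on a C57BL/6 background, were given 100 µg of NP-CGG in complete Freund's adjuvant by the intraperitoneal route, and were analysed on day 7. Cells were gated as CD3+CD4+CXCR5+PD-1+ and negative for GFP and B220. The 3 libraries of each genotype came from 3 experiments, each with several pooled mice.

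S1P is abundant in blood and lymph and scarce inside lymphoid tissue, and lymphocytes read this difference through a family of G protein-coupled receptors. S1PR1 signals through Gi and leads T cells out of the tissue along the gradient, whereas S1PR2 signals through G12 and G13 to the guanine nucleotide exchange factor ARHGEF1, inhibits migration and keeps cells at the centre of the follicle. GPR183, also called EBI2, follows oxysterols towards the outer follicle and the T zone border, and RGS proteins shorten signals through Gi.

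Bob1 is encoded by Pou2af1, whose level was the check of the labels: it was 46.1, 32.5 and 34.4 FPKM in control replicates 1 to 3 and 1.16, 0.237 and 0.317 FPKM in the Bob1-deficient libraries. FPKM are fragments per kilobase of transcript, scaled to the mapped fragments of the library, so levels can be compared between genes. The depth was estimated at about 17100000 to 24300000 mapped fragments per library. In the limma fit over all genes on log2(FPKM + 1), 2 of 10306 genes (0.0194%) passed an adjusted P of 0.05, of which Pou2af1 was 1, and 544 had an unadjusted P below 0.05. The labelled cell type was met by its markers, since Cd3e lay between 642 and 929 FPKM and Cxcr5 between 156 and 264 FPKM. Foxp3 was listed at 0 in all 6 libraries, and Ms4a1, Pax5 and Cd8a stayed below 1 FPKM, whereas Cd8b1 was at 3.4 to 6.0 FPKM, Cd22 at 17.8 to 44.9 FPKM and Nkg7 at 68.3 to 125 FPKM. Y-linked Ddx3y was read at 29.9 and 27.9 FPKM in both replicate 2 libraries and listed at 0 in the other 4, so that each genotype had 1 library with Y-linked transcripts. In bulk RNA, fewer cells of a kind and less RNA per cell cannot be told apart.

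None of the 8 genes passed the adjusted P of 0.05 in the limma fit, with adjusted values from 0.898 to 0.994. The log2 fold change of Bob1-deficient over control cells was negative for 5 genes and positive for 3, with a median of -0.11 beside -0.0026 over all genes tested. S1pr2 was the 1 gene of the 8 with an unadjusted P below 0.05 and a negative difference, against 2.12% of all genes tested. It was also the 1 gene of the 8 with every Bob1-deficient library below every control library, against 4.87% of all genes, and the 1 gene with a log2 fold change below -1, against 0.883% of all genes. For the other 7 genes the 95% interval of the difference included 0 in this fit, which had no replicate block.

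**Figure D1:**
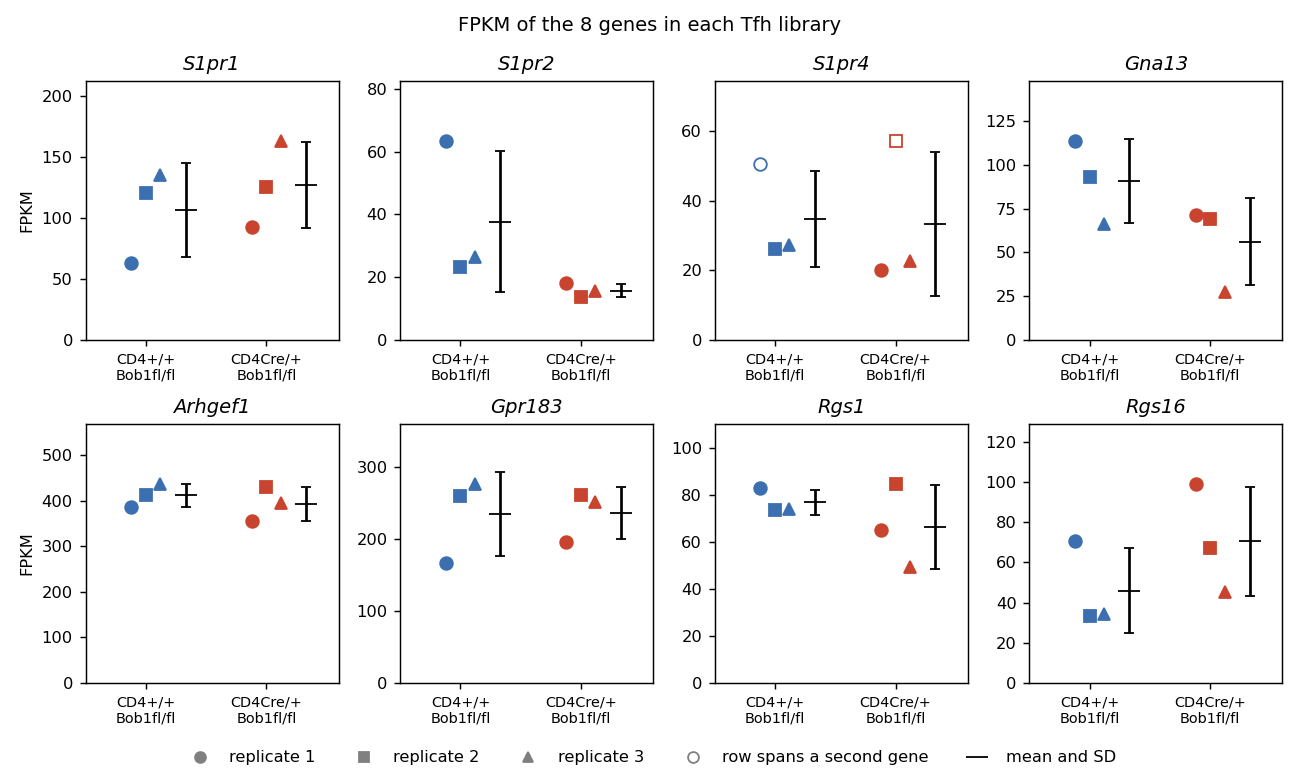
FPKM (vertical axis, from 0) of the 8 genes in the 3 CD4+/+Bob1fl/fl and the 3 CD4Cre/+Bob1fl/fl libraries, with a symbol for each replicate number and a bar for the mean and SD of each group. The Bob1-deficient S1pr2 values of 13.6 to 17.9 lie below all control values, while the groups overlap for the other genes; open symbols at S1pr4 mark libraries whose row also spans Ncln.

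S1pr2 (chromosome 9, 20965952 to 20976793 of GRCm38, minus strand) encodes the confining S1P receptor. It was read at 63.6, 23.1 and 26.3 FPKM in control replicates 1, 2 and 3 and at 17.9, 13.6 and 15.5 FPKM in Bob1-deficient replicates 1, 2 and 3. All Bob1-deficient libraries lay below the lowest control library, and control replicate 1 lay far above the other 2 control libraries. The group means were 37.7 ± 22.5 FPKM (SD, n = 3) and 15.7 ± 2.16 FPKM (SD, n = 3), so the spread was far wider in the control group.

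On the log2 scale S1pr2 differed by -1.07 (SE 0.364, 95% interval -1.94 to -0.21), with an unadjusted P of 0.0218 and an adjusted P of 0.898 in limma. An exact two-sided permutation test gave P = 0.1, the smallest value that 3 libraries against 3 allow. Without control replicate 1 the difference was -0.63 (SE 0.163), and without control replicate 2 it was -1.34 (SE 0.370). The bounds that Cufflinks gave each value, which cover counting and assignment of fragments only, did not meet between the groups, with 19.1 FPKM as the highest Bob1-deficient upper bound and 21.8 FPKM as the lowest control lower bound. The width of these bounds implied about 1963, 1283 and 1633 fragments in control replicates 1, 2 and 3. For Bob1-deficient replicates 1, 2 and 3 it implied about 1010, 979 and 789. Such figures are not counts and depend on the assembled model. The row of control replicate 1 ended at 20976806, against 20976793 for the rows used in the other libraries. The part of the assembled model in its high FPKM was not tested. In the authors' table, built on 1 common assembly of transcripts, the group FPKM of S1pr2 were 42.8 for control and 18.2 for Bob1-deficient cells.

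Bob1 is a coactivator that acts with Oct-1 and Oct-2 on octamer sites, so the bases before the start of the genes were searched for the octamer ATGCAAAT and for its last 7 letters, TGCAAAT, which every octamer also holds, on both strands. RefSeq promoters of GRCm38.p6 were at hand for S1pr2, S1pr4, Gpr183, Gna13, Arhgef1 (2 promoters) and Rgs16. None of these 7 windows of 250 bases held either motif, while 1.6% of all 32851 promoters held the octamer and 3.56% its last 7 letters. The absence says only that these letters are not in these windows. The window of S1pr2 is shown because S1pr2 was the gene that separated the groups, and it is printed in lower case throughout because no motif was found in it. It lies at chr9:20976794-20977043 on the minus strand, holds 59.2% G and C, and ends at the base before the annotated start.
S1pr2: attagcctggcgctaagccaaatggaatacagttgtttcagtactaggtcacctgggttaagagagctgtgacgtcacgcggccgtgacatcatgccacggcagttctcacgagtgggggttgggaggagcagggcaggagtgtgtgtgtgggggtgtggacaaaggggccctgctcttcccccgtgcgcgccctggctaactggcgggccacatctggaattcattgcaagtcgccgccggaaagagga

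S1pr1 (chromosome 3, 115710433 to 115715055) encodes the egress receptor. Its level was 62.6, 120.5 and 135.1 FPKM in control replicates 1, 2 and 3 and 92.2, 125.1 and 163.1 FPKM in Bob1-deficient replicates 1, 2 and 3. The groups overlapped, and replicate 1 was the lowest library of each group. The means were 106 ± 38.4 FPKM (SD, n = 3) in control and 127 ± 35.5 FPKM (SD, n = 3) in Bob1-deficient cells. The Cufflinks bounds implied about 2004, 7270 and 2965 fragments in control replicates 1, 2 and 3. In Bob1-deficient replicates 1, 2 and 3 they implied about 5743, 9707 and 8778. Control replicate 3 was thus the highest control library in FPKM but not in implied fragments, which depend on the assembled model. The part of the model in these levels was not tested.

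For S1pr1 the log2 fold change was 0.29 (SE 0.329, 95% interval -0.49 to 1.07, limma adjusted P = 0.952, exact permutation P = 0.6). Its sign rested on control replicate 1, without which the difference was -0.047, and it was 0.50 without control replicate 3. A difference of S1pr1 was therefore not resolved with these libraries.

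The S1pr1 level exceeded that of S1pr2 in 5 of the 6 libraries. The ratio of S1pr1 to S1pr2 was 0.984, 5.22 and 5.13 in control replicates 1, 2 and 3 and 5.14, 9.17 and 10.6 in Bob1-deficient replicates 1, 2 and 3. Bob1-deficient replicate 1 thus had the same ratio as control replicates 2 and 3, control replicate 1 stood alone with nearly equal levels of both receptors, and the highest ratios were those of Bob1-deficient replicates 2 and 3. The ratio was not tested, because it was formed after both levels had been seen. Both levels in it depend on the assembled models.

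**Figure D2:**
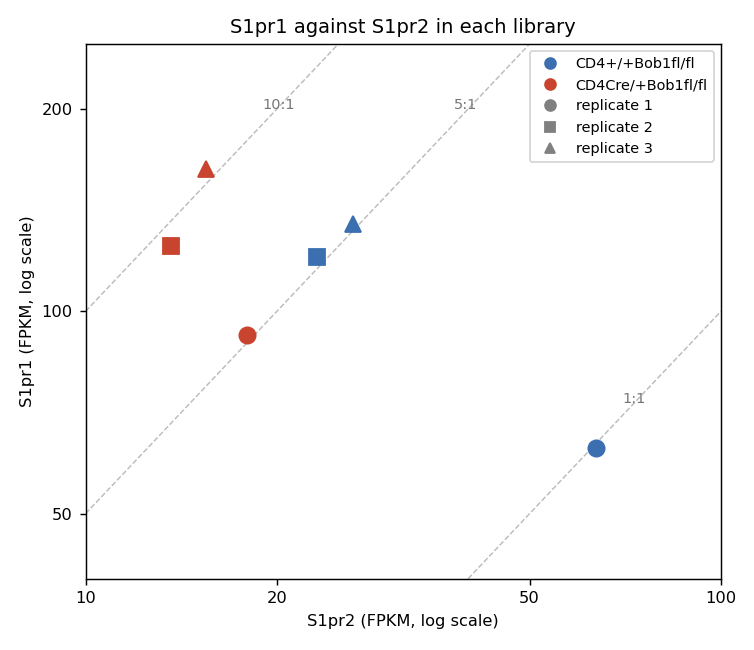
S1pr1 FPKM (vertical axis, log scale) against S1pr2 FPKM (horizontal axis, log scale) in each of the 6 libraries, coloured by genotype and with a symbol for each replicate number, with dashed lines at S1pr1 to S1pr2 ratios of 1, 5 and 10. Control replicate 1 sits on the line of equal levels at 62.6 and 63.6 FPKM, and the 3 Bob1-deficient libraries lie at the left, at 13.6 to 17.9 FPKM of S1pr2.

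Replicate 1 stood apart within both groups in genes beyond these receptors, which were named after their values were seen. Pdcd1, which encodes PD-1, was at 607 FPKM in control replicate 1 against 288 and 275 FPKM in the other control libraries, and at 554 FPKM in Bob1-deficient replicate 1 against 331 and 387 FPKM. Klf2, the transcription factor that drives S1pr1, was at 108 FPKM in control replicate 1 against 368 and 287 FPKM, and at 211 FPKM in Bob1-deficient replicate 1 against 486 and 313 FPKM. Both replicate 1 libraries thus had the highest Pdcd1 and the lowest Klf2 and S1pr1 of their group. S1pr2 was likewise highest in replicate 1 of each group, at 63.6 FPKM in control and 17.9 FPKM in Bob1-deficient cells. The part of this library difference in the S1pr2 result was not tested beyond leaving out each library.

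S1pr4 (chromosome 10, 81497745 to 81500137, minus strand) encodes an S1P receptor of haematopoietic cells. In the 4 libraries where it had a row of its own, it was read at 26.1 and 27.2 FPKM in control replicates 2 and 3 and at 20.1 and 22.5 FPKM in Bob1-deficient replicates 1 and 3. In control replicate 1 and Bob1-deficient replicate 2 the assembly had joined S1pr4 to the neighbouring gene Ncln, and those rows held 50.5 and 57.2 FPKM for both genes together. Among the 4 separate values both Bob1-deficient libraries lay below both control libraries. The share of all genes with such a split of 2 against 2 libraries was not computed, so the split was not read as a difference.

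With all 6 libraries the log2 fold change of S1pr4 was -0.15 (SE 0.432, 95% interval -1.17 to 0.88, limma adjusted P = 0.980), and its sign turned to 0.15 without control replicate 1, 0.12 without Bob1-deficient replicate 1 and 0.045 without Bob1-deficient replicate 3. With the 2 joined values taken as missing, a treatment chosen after they had been seen, it was -0.31 (SE 0.151, 95% interval -0.69 to 0.076, limma adjusted P = 0.939). The authors' table joins the same 2 genes in both groups, with group FPKM of 63.9 for control and 63.1 for Bob1-deficient cells, and so gives no value for S1pr4 alone. In the 4 libraries with separate values, S1pr2 and S1pr4 stood close together, with S1pr4 above S1pr2 in 4 of 4. Of the other receptors of the family, S1pr3 and S1pr5 stayed below 0.6 FPKM in every library and were not tested.

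**Figure D3:**
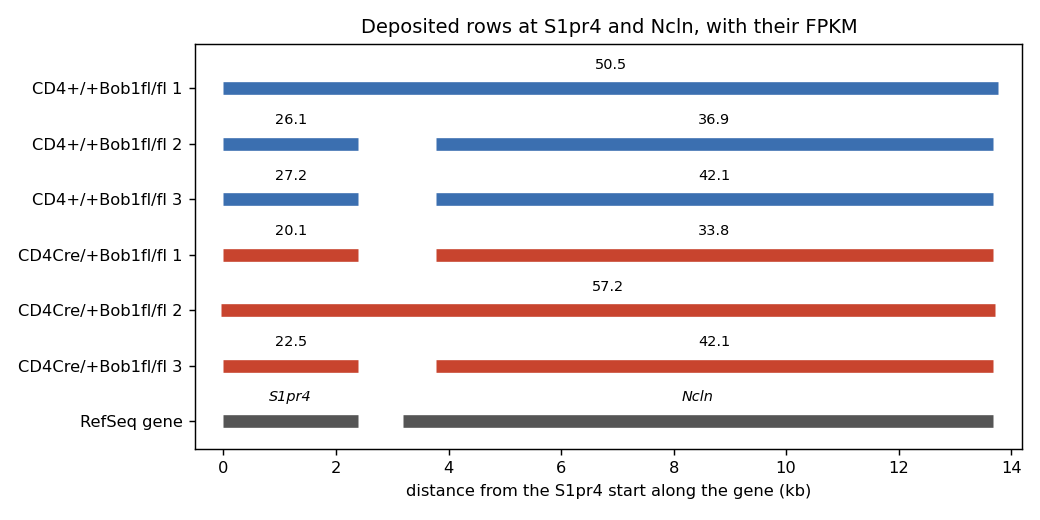
Span of each deposited row at S1pr4 and Ncln in the 6 libraries (horizontal axis, distance from the S1pr4 start in kb), with its FPKM above it and the RefSeq genes in grey. A single row covers both genes in control replicate 1 (50.5 FPKM) and Bob1-deficient replicate 2 (57.2 FPKM), and S1pr4 has its own row, at 20.1 to 27.2 FPKM, in the other 4 libraries.

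Gpr183 (chromosome 14, 121952331 to 121965193, minus strand) was the most abundant receptor of the 8 genes. It was read at 167, 260 and 277 FPKM in control replicates 1, 2 and 3 and at 195, 262 and 252 FPKM in Bob1-deficient replicates 1, 2 and 3. The groups overlapped almost wholly, and replicate 1 was again the lowest library of each. Gpr183 differed between the groups by 0.031 on the log2 scale (SE 0.220, 95% interval -0.49 to 0.55, limma adjusted P = 0.994), and its sign turned in 3 of the 6 fits that left out a library, among them to -0.20 without control replicate 1.

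Gpr183 lies within the span of Ubac2, and the library kit does not keep strand, so their fragments are divided by the assembled models alone. Ubac2 was at 167, 69.2 and 89.5 FPKM in the control libraries and at 113, 81.7 and 104 FPKM in the Bob1-deficient libraries, with the highest value of each group in replicate 1. The sum of both genes was 330 to 367 FPKM in control and 308 to 356 FPKM in Bob1-deficient cells.

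Gna13 (chromosome 11, 109362794 to 109401369, plus strand) encodes the G protein subunit that links S1PR2 to ARHGEF1. It was read at 114, 93.2 and 65.9 FPKM in control replicates 1, 2 and 3 and at 71.3, 69.2 and 27.2 FPKM in Bob1-deficient replicates 1, 2 and 3. The groups overlapped, because control replicate 3 lay below Bob1-deficient replicates 1 and 2, and Bob1-deficient replicate 3 was the lowest library. The means were 91.0 ± 24.0 FPKM and 55.9 ± 24.9 FPKM (SD, n = 3 each).

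For Gna13 the log2 fold change was -0.78 (SE 0.392, 95% interval -1.71 to 0.15, unadjusted P = 0.0880 and adjusted P = 0.925 in limma, exact permutation P = 0.3). It was -0.33 (SE 0.237) without Bob1-deficient replicate 3. In the other 5 libraries further assembled rows inside the gene, of 4.94 to 18.2 FPKM, were not assigned to it, whereas Bob1-deficient replicate 3 had none. With these rows assigned by best overlap with no minimum, the difference was -0.57 (SE 0.535). The Cufflinks bounds of the rows used implied about 1158, 1314 and 1358 fragments in Bob1-deficient replicates 1, 2 and 3. In control replicates 1, 2 and 3 they implied about 1604, 1537 and 1108. Bob1-deficient replicate 3 was thus lowest in FPKM but not in implied fragments, which depend on the assembled model. The part of the model in its low FPKM was not tested. The authors' group FPKM, on the common assembly, were 104 for control and 74.4 for Bob1-deficient cells.

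The Gna13 window of 250 bases, at chr11:109362544-109362793 on the plus strand, is shown because Gna13 had the largest negative difference after S1pr2. It was the richest in G and C of the 7 windows, at 76.0%, against a median of 52.4% over all promoters.
Gna13: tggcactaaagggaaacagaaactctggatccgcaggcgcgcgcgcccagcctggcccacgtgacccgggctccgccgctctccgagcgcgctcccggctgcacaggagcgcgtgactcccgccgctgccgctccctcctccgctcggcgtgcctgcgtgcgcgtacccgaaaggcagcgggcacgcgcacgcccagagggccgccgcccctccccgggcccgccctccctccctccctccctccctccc

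Arhgef1 (chromosome 7, 24902986 to 24926594, plus strand), the exchange factor that Gna13 activates, was the most abundant of the 8 genes in every library. It was read at 387, 413 and 437 FPKM in control replicates 1, 2 and 3 and at 356, 431 and 394 FPKM in Bob1-deficient replicates 1, 2 and 3. The groups overlapped, and the values lay closer together than those of the receptors. The difference of Arhgef1 was -0.069 (SE 0.119, limma adjusted P = 0.967) on the log2 scale, and its 95% interval of -0.35 to 0.21 was the narrowest of the 8 genes. The estimate ranged from -0.14 to 0.0014 as each library was left out.

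Rgs1 (chromosome 1, 144244669 to 144249104) encodes a brake on Gi-coupled chemoattractant receptors. Its level was 82.8, 73.8 and 73.9 FPKM in control replicates 1, 2 and 3 and 65.1, 84.8 and 49.2 FPKM in Bob1-deficient replicates 1, 2 and 3. Bob1-deficient replicates 1 and 3 lay below all control libraries and replicate 2 above them all. The Cufflinks bounds implied about 2302, 2142 and 2365 fragments in control replicates 1, 2 and 3. In Bob1-deficient replicates 1, 2 and 3 they implied about 1880, 1636 and 1227. Bob1-deficient replicate 2 was thus above all control libraries in FPKM but below them in implied fragments, which depend on the assembled model. The part of the model in its FPKM was not tested. The log2 fold change was -0.24 (SE 0.196, 95% interval -0.71 to 0.22, limma adjusted P = 0.940), and it was -0.43 without Bob1-deficient replicate 2 and -0.047 without Bob1-deficient replicate 3.

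Rgs16 (chromosome 1, 153740353 to 153745468, plus strand), a related brake on Gi and Gq signals, had the largest positive difference of the 8 genes. It was read at 70.5, 33.2 and 34.2 FPKM in control replicates 1, 2 and 3 and at 99.2, 67.1 and 45.3 FPKM in Bob1-deficient replicates 1, 2 and 3. The groups overlapped through control replicate 1, which lay above Bob1-deficient replicates 2 and 3, and replicate 1 was the highest library of each group. The means were 46.0 ± 21.3 FPKM and 70.5 ± 27.1 FPKM (SD, n = 3 each). The Cufflinks bounds implied about 3208, 1547 and 1776 fragments in control replicates 1, 2 and 3. In Bob1-deficient replicates 1, 2 and 3 they implied about 4638, 1825 and 1934. Bob1-deficient replicate 2 was thus above replicate 3 in FPKM but below it in implied fragments, which depend on the assembled model. The part of the model in its FPKM was not tested.

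For Rgs16 the log2 fold change was 0.62 (SE 0.372, 95% interval -0.26 to 1.51, unadjusted P = 0.138 and adjusted P = 0.940 in limma, exact permutation P = 0.3). It was 0.97 without control replicate 1 and 0.35 without Bob1-deficient replicate 1. Rgs1 and Rgs16 thus differed in the sign of their estimates, and in this fit without a replicate block both intervals included 0. The Rgs16 window of 250 bases, at chr1:153740103-153740352 on the plus strand, is shown as that of the gene with the largest positive difference and holds 66.4% G and C.
Rgs16: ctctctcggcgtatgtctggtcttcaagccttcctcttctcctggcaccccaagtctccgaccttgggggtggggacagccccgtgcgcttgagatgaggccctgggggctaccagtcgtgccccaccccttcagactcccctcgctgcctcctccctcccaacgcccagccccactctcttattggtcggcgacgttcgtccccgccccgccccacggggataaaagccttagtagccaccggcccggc

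**Figure D4:**
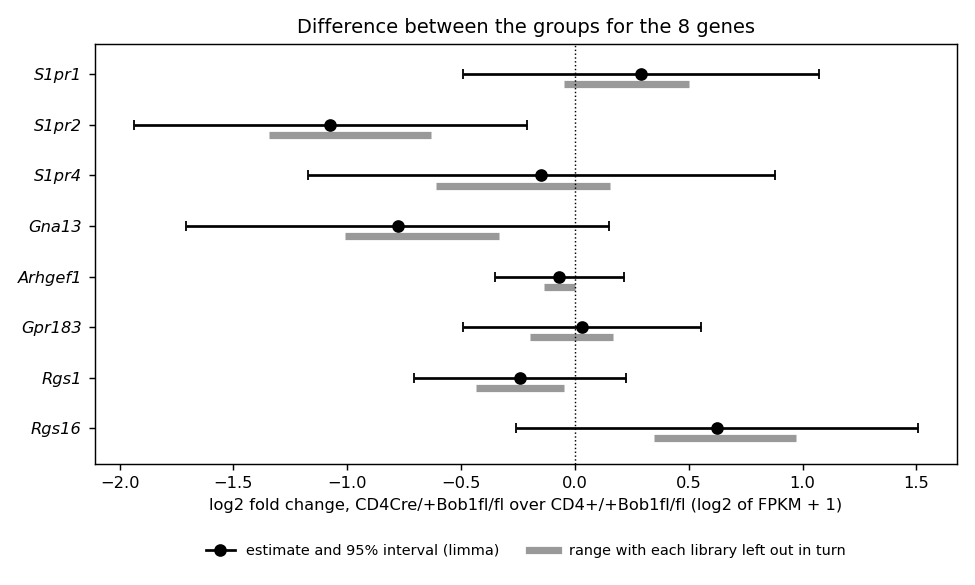
Log2 fold change of CD4Cre/+Bob1fl/fl over CD4+/+Bob1fl/fl cells (horizontal axis, on log2 of FPKM + 1) for the 8 genes, with black points and bars for the limma estimate and its 95% interval and grey bars for the range with each library left out in turn. In this fit without a replicate block, the interval of S1pr2, -1.94 to -0.21, lies below 0, and those of the other 7 genes include 0.

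The order of the levels was the same at its top in both groups, with Arhgef1 first and Gpr183 next by group mean. S1pr1 followed by group mean, at 106 FPKM in control and 127 FPKM in Bob1-deficient cells. Within libraries it ranked 7 of the 8 genes in control replicate 1 and 4 in Bob1-deficient replicate 1. In control cells Gna13 overlapped both S1pr1 and Rgs1 in range, while every Rgs16 value lay below every Rgs1 value. In Bob1-deficient cells the ranges of Gna13, Rgs1 and Rgs16 overlapped, so their order was not resolved. S1pr2 and S1pr4 stood lowest in the 4 libraries with separate S1pr4 values, and in control replicate 1 S1pr2, at 63.6 FPKM, slightly exceeded S1pr1.

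Genes around these receptors were followed in lists, and 0 genes of any list below passed the adjusted P of 0.05 in limma. Of the 8 tested genes of the G12/13 arm, 3 had positive and 5 negative differences, with a median of -0.082 that ranged from -0.13 to 0.024 as each library was left out. Rock2, a kinase downstream in this arm, was the 1 gene of the 8 with an unadjusted P below 0.05, against 2.12% of all genes tested that were lower at this P. It was at 18.0, 11.0 and 10.7 FPKM in control and 11.1, 6.44 and 6.31 FPKM in Bob1-deficient cells, a log2 fold change of -0.67 (SE 0.276), and the groups overlapped. Without control replicate 1 it was -0.44 (limma unadjusted P = 0.146), and with best overlap and no minimum -0.45 (limma unadjusted P = 0.19). Gna12, the close relative of Gna13, had a difference of the opposite sign, 0.40 (SE 0.180, limma unadjusted P = 0.0617).

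In the Gi arm with receptor desensitisation, 3 of 11 tested genes had positive and 8 negative differences, with a median of -0.048 (-0.077 to 0.0031 as each library was left out) and 0 genes at an unadjusted P below 0.05. The kinases Grk6 and Grk5, which phosphorylate activated receptors, had the smallest P values, with log2 fold changes of -0.29 (SE 0.130) and 0.27 (SE 0.205). Grk6 was at -0.19 without control replicate 3, and Grk5 at 0.46 with a pseudocount of 0.1. Of the 9 tested RGS genes, 3 had positive and 6 negative differences, with a median of -0.23 and again 0 genes at an unadjusted P below 0.05. Rgs14 was the 1 RGS gene of 9 whose groups did not overlap, against 4.87% of all genes in this direction. It was at 76.4, 73.8 and 90.2 FPKM in control and 66.7, 69.7 and 67.3 FPKM in Bob1-deficient cells, a log2 fold change of -0.23 (SE 0.112) that was -0.14 without control replicate 3. Rgs13, which germinal centre B cells express strongly, stayed below 0.2 FPKM.

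Of the 11 tested genes for enzymes and transporters that make, export and break down S1P, 4 had positive and 7 negative differences, with a median of -0.062 that ranged from -0.13 to 0.013 as each library was left out. Plpp1, a lipid phosphate phosphatase that can dephosphorylate S1P, was at 1.62, 1.15 and 1.25 FPKM in control and 8.15, 3.23 and 3.74 FPKM in Bob1-deficient cells. Every Bob1-deficient library lay above every control library, as for 5.85% of all genes tested, and Bob1-deficient replicate 1 lay far above the other 2. Its log2 fold change was 1.29 (SE 0.316, limma unadjusted P = 0.00496 and adjusted P = 0.594), and it was 0.94 without Bob1-deficient replicate 1. An unadjusted P below 0.05 with a higher level was held by 3.16% of all genes tested. The ceramide synthase Cers4 came next by P, at -0.34 (SE 0.219), or -0.18 without control replicate 1 and -0.16 without Bob1-deficient replicate 1. Sphk1, which makes S1P, and the exporter Spns2 were below 0.7 FPKM in every library, while Sphk2 was at 17.0 to 19.9 FPKM. Of the enzymes that make and convert the oxysterol ligand of Gpr183, Ch25h, Cyp7b1 and Cyp27a1 stayed below 0.4 FPKM, and Hsd3b7 was the 1 gene tested, at 0.54 (SE 0.230, limma unadjusted P = 0.0532) and 0.92 with a pseudocount of 0.1, with the value of 1 library from a row that also spans another gene.

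Of the 8 egress regulators 6 had positive and 2 negative differences, with a median of 0.17 that ranged from -0.098 to 0.36 as each library was left out. Klf3, a Krüppel-like factor related to Klf2, was at 62.8, 81.9 and 90.6 FPKM in control and 91.7, 108 and 113 FPKM in Bob1-deficient cells. The groups did not overlap but nearly touched, at 90.6 and 91.7 FPKM, and the log2 fold change was 0.42 (SE 0.163, limma unadjusted P = 0.0386 and adjusted P = 0.898), or 0.27 without control replicate 1. Of all genes tested, 5.85% lay above control without overlap, and 3.16% were higher at an unadjusted P below 0.05. Stat3 came next by P, at 0.16 (SE 0.101), or 0.098 without control replicate 2 and 0.067 with best overlap and no minimum. Cd69, whose product removes S1PR1 from the cell surface, was at 112 to 124 FPKM in control and at 92.4, 138 and 66.9 FPKM in Bob1-deficient cells, and was named after its values were seen.

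The other receptors that place cells in the follicle had 9 positive and 4 negative differences among 13 tested genes, with a median of 0.17. Ephb6, at 0.29 (SE 0.124), and the semaphorin Sema4c, at 0.50 (SE 0.290), had the smallest P values. Sema4c was at 0.29 without Bob1-deficient replicate 2 and at 0.90 with a pseudocount of 0.1. Of the 8 Tfh and CD4 T cell markers 4 had positive and 4 negative differences, with a median of 0.012 that ranged from -0.12 to 0.22 as each library was left out. Cd4 was at 378, 357 and 300 FPKM in control and 466, 414 and 443 FPKM in Bob1-deficient cells, with a log2 fold change of 0.36 (SE 0.127, limma unadjusted P = 0.0265), and Il21 came next at 0.19 (SE 0.252), with a sign that turned to -0.024 without control replicate 3.

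**Figure D5:**
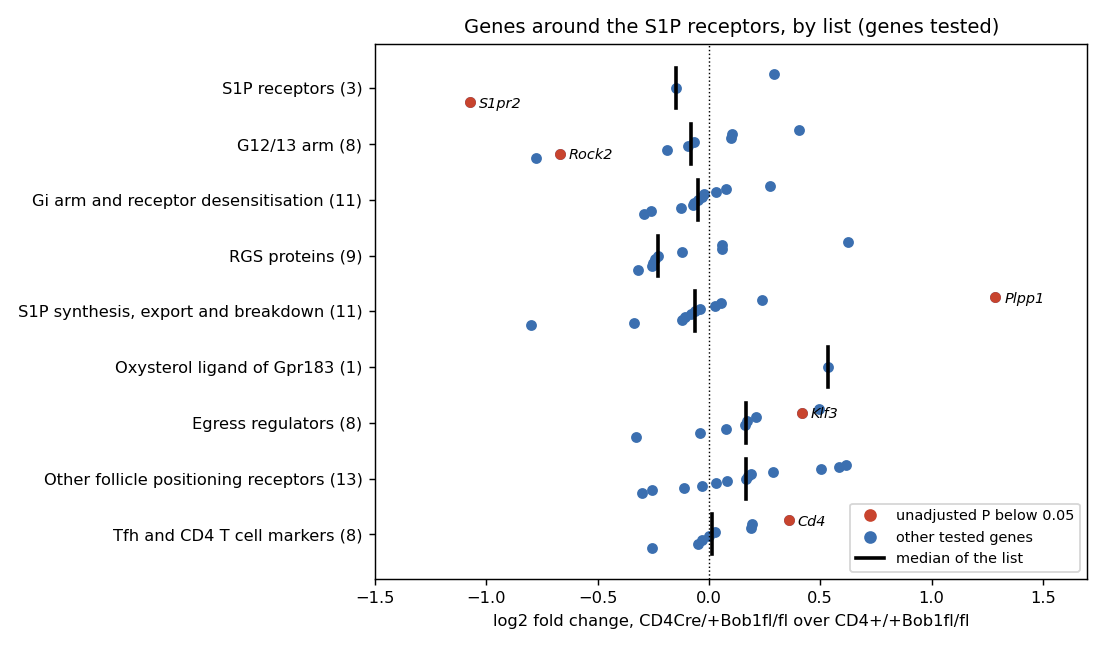
Log2 fold change of CD4Cre/+Bob1fl/fl over CD4+/+Bob1fl/fl cells (horizontal axis) for each tested gene of 9 lists, with a black bar at the median of each list and red points for an unadjusted limma P below 0.05. S1pr2 at -1.07 and Plpp1 at 1.29 lie farthest from 0, and the medians of the lists with more than 1 tested gene lie between -0.23 and 0.17.

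Profiles across the 6 libraries were compared by the root mean square difference of log2(FPKM + 1), each gene centred on its own mean. Those most like S1pr1 were Tmem221 (0.094), Zfp169 (0.098) and Hspa4 (0.128), against a root mean square of 0.440 for S1pr1 itself. Those most like S1pr2 were Zcchc12 (0.230), Btbd16 (0.240) and Cpeb1 (0.285), against 0.707 for S1pr2 itself. Zcchc12 was at 11.1, 2.61 and 2.80 FPKM in control and 2.09, 0.769 and 2.12 FPKM in Bob1-deficient cells, and so also had its highest value in control replicate 1.

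Markers of other cells that the sort could hold were summed in each library. The 11 B cell markers added to 23.1 to 39.6 FPKM in control and 27.7 to 53.9 FPKM in Bob1-deficient cells, mostly from Cd22, with Cd79b and Cd79a below 5 FPKM. The 10 myeloid markers, led by S100a8, S100a9 and Lyz2, added to 511 to 857 FPKM in control and to 4114, 79.1 and 1194 FPKM in Bob1-deficient replicates 1, 2 and 3. S1pr2 in these 3 libraries, at 17.9, 13.6 and 15.5 FPKM, had the same order as the myeloid sums. In control replicates 1, 2 and 3 the order differed, with sums of 632, 511 and 857 FPKM and S1pr2 at 63.6, 23.1 and 26.3 FPKM. The 10 NK and CD8 T cell markers, led by Nkg7, Eomes and Klrb1c, added to 108 to 163 FPKM in control and 101 to 148 FPKM in Bob1-deficient cells. Prf1, which encodes perforin and was named after its values were seen, was the 1 gene of the 7 tested in this list with an unadjusted P below 0.05. Of all genes tested, 2.12% were lower at this P, and 4.87% had every Bob1-deficient library below every control library. Prf1 was at 2.78, 2.56 and 3.06 FPKM in control and 0.907, 1.84 and 1.16 FPKM in Bob1-deficient cells, all below control, with a log2 fold change of -0.74 (SE 0.220, limma unadjusted P = 0.0124 and adjusted P = 0.865). The 5 regulatory T cell markers, led by Tnfrsf18, Ctla4 and Ikzf2, added to 294 to 401 FPKM and 335 to 383 FPKM. The 9 naive T cell markers, led by Tcf7, Klf2 and S1pr1 itself, added to 1321 to 1737 FPKM in control, with the lowest sum in replicate 1, and to 1534 to 1872 FPKM in Bob1-deficient cells. The part of other cells in the values of the 8 genes was not tested.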

How the data were processed

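RNA from 6 libraries of sorted splenic Tfh cells was used, grouped by the genotype in the sample labels. The authors trimmed reads with cutadapt 1.2.1, aligned them to GRCm38 (mm10) with TopHat2 2.0.13 and deposited FPKM from Cufflinks 2.2.1, as the submitters' processing notes give it. No annotation version was named there. The deposited FPKM of each library rest on transcripts assembled in that library, so that 94.07% to 95.92% of the FPKM stand in rows without a gene name. Differences between the assembled models can change the FPKM of a gene. A table of both groups holds group FPKM, printed here as the authors' values, and a log2 fold change, a test score, p-values and q-values, which were not used.

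Rows were assigned to RefSeq genes of the same build where they shared at least 0.5 of their joint length, then, for genes without a row, where a row covered at least 0.95 of the gene, and FPKM were summed per gene. This assigned 86.76% to 87.9% of the FPKM, and 7 genes with a failed estimate were left out. Genes whose FPKM averaged 1 or more entered limma 3.58.1 (R 4.3.3), as log2(FPKM + 1), with a variance trend, the group as the only term, two-sided P and Benjamini-Hochberg adjustment over all genes tested. On this scale the changes of low genes are understated. The fit was tested on simulated data. Depth was estimated from the bounds and steps of low FPKM. Whole fragments came out for 52.15% to 54.86% of small values, within 0.05, too few to recover counts. Tables and figures were made with Python 3.11.15, pandas 2.3.3 and matplotlib 3.10.9.

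Beside the 8 genes and Pou2af1, those named are the genes of each pathway list past the adjusted P, or the 2 with the smallest P, up to 3 abundant genes per list of other cells, and the 3 profiles most like S1pr1 and S1pr2. Other marker and pathway genes that the report names were chosen after their values were seen. Of the B cell markers, 1 is not reported here. The 8 genes and all lists were chosen with earlier results of these data known. As alternatives, the pseudocount, filter, scaling, variance trend and row matching were changed, a replicate block was added and each library was left out.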

Additional observations from a re-analysis of the deposited data

How the results depend on the processing

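Under 19 alternatives none of the 8 genes passed the adjusted P of 0.05 in limma. S1pr2, Gna13, Rgs1 and Rgs16 kept their direction in all 19. As each library was left out in turn, the log2 fold change ranged from -1.34 to -0.63 for S1pr2, -1.01 to -0.33 for Gna13, -0.43 to -0.047 for Rgs1, 0.35 to 0.97 for Rgs16, -0.047 to 0.50 for S1pr1, -0.61 to 0.15 for S1pr4, -0.14 to 0.0014 for Arhgef1 and -0.20 to 0.17 for Gpr183. The sign turned without control replicate 1 for S1pr1 (-0.047), S1pr4 (0.15) and Gpr183 (-0.20), without Bob1-deficient replicate 1 for S1pr4 (0.12) and Arhgef1 (0.0014), without Bob1-deficient replicate 2 for Gpr183 (-0.049) and without Bob1-deficient replicate 3 for S1pr4 (0.045) and Gpr183 (-0.020). Gpr183 also turned to -0.039 with best overlap and no minimum, and Il21 ranged from -0.024 without control replicate 3 to 0.47 without control replicate 1. The cause was not tested. For S1pr4 the lowest value, -0.77, came without both replicate 2 libraries.

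The number of genes called in the whole table was 2, against 0 in limma with a pseudocount of 0.1, where 544 genes had an unadjusted P below 0.05, 1 with a pseudocount of 0.5, 2 to 7 as each library was left out (7 without control replicate 1, 6 without control replicate 3 and 4 without Bob1-deficient replicate 1) and 6 without both replicate 2 libraries. Pou2af1 had an adjusted P of 0.0585 with the pseudocount of 0.1 and 0.0810 without both replicate 2 libraries. No scaling moved the median of all genes by over 0.1.

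Replicate numbers were not taken to pair the libraries in the main fit, since the study states no pairing of them. The correlations of same-numbered deviations from the group means were 0.111, 0.0948 and 0.0820, and every library correlated best with its own number. Those of unequal numbers ran from -0.069 to -0.020. Both replicate 2 libraries alone held Y-linked Ddx3y, and both replicate 1 libraries had the highest Pdcd1 and lowest Klf2 of their group. The labels do not say whether equal numbers mark the same experiment. With a replicate block 1 gene was called in place of 2. The block left the estimates as they were. In limma with it, the unadjusted P was 0.00787 for S1pr2 (adjusted P = 0.605), 0.00879 for Gna13 (adjusted P = 0.647) and 0.0104 for Rgs16 (adjusted P = 0.678). For S1pr1 it was 0.0840, for Rgs1 0.230, for Arhgef1 0.590, for S1pr4 0.761 and for Gpr183 0.812. Over all genes, 644 of 10306 had an unadjusted P below 0.05 in limma with the block, against 544 in the main fit.

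With 3 libraries per group and no replicate block, the 95% intervals of the 8 genes reach from -1.94 to 1.51, and differences within them were not resolved in that fit. Depth sets no tighter limit for S1pr1, whose counting bounds were narrow beside the spread between libraries. For S1pr2 the same held in control cells. In Bob1-deficient replicates 2 and 3 the S1pr2 bounds, 12.8 to 14.5 and 14.4 to 16.6 FPKM, overlapped. The Arhgef1 bounds of control replicates 2 and 3, 403 to 423 and 425 to 449 FPKM, nearly met.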
